A study of Mus musculus with 8 samples.

Results

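Hedgehog pathway and Zic genes were examined for H3K27me3, the histone mark that Polycomb repressive complex 2 places on genes held silent, in mouse embryonic stem cells. Members were chosen by name: the ligands Shh and Ihh, the signal transducer Smo, the inhibitor Hhip, the transcription factors Gli1 and Gli2, and the zinc finger genes Zic1 and Zic4. An interval of the count table was taken for a gene when its span best matched the RefSeq gene, with overlap over union of at least 0.5. Intervals were found for 7 of the 8 listed genes, among 20227 genes named in this way. Gli1 was not analysed here. Together the 7 genes had 25 matching intervals, and the best match of each was used.

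The study profiled E14tg2a stem cells (background strain 129SV) that stably carry cRAF-ErT2, a RAF kinase fusion that 4-hydroxytamoxifen (4OHT) switches on to drive ERK signalling. The treated group received 250 nM 4OHT for 2 h and the untreated group was taken at 0 h. Each group held clones A and B, with 1 H3K27me3 library per clone and time. Cells of all groups grew in serum with LIF and Chir99021 (2 µM), which blocks the kinase GSK3. They then spent 24 h with PD173074 (250 nM), which blocks FGF receptors. Both clones derive from a single line, and the promoter that drives the fusion is not given in the sources used here. Column totals ran from 70378127 to 92518605 counts, summed over intervals that overlap. Of 10 stem cell genes measured, 0 were dense in the mark (0.230 to 0.694 times the median gene), and of 8 fibroblast genes 1 was (Thy1). Both counts are near the 5.78% of all named genes that were dense, and the mark does not measure expression, so the cell type was not checked by them.

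Hedgehog ligands are secreted proteins that pattern the limb, the neural tube and the skeleton. They bind Patched receptors, which releases the membrane protein Smoothened (Smo), and this activates Gli transcription factors at the primary cilium. Hhip binds ligand at the cell surface and dampens the signal, while Gli1, Hhip and Ptch1 are themselves targets of the pathway. Zic proteins carry zinc fingers related to those of Gli proteins and act in the early neural plate, the cerebellum and the dorsal neural tube. In embryonic stem cells, many regulators of later lineages carry H3K27me3 at promoters rich in CpG dinucleotides.

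The first question was which of these genes carried the mark. Both ligands and both Zic genes were densely covered, at 9.50 to 13.2 times the median gene, while Smo, Hhip and Gli2 stood near or below the median gene. Density is given as counts per kb of interval per 1000000 counts of the column total, and a gene is called dense at 4 times the median gene (0.357) or more. By that limit 4 of the 7 members were dense, against 5.78% of all named genes.

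Shh, the ligand of the notochord, floor plate and limb bud, lies on chromosome 5 (28456840 to 28467101, minus strand, mm10). Its density was 5.13 and 4.31 at 2 h (clones A and B), against 5.05 and 4.34 at 0 h. At 13.2 times the median gene, it was denser than 99.6% of named genes. Both clone A libraries were higher than both clone B libraries, and the ranges of the 2 times overlapped.

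Ihh, the ligand of cartilage growth and gut, lies on chromosome 1 (74945315 to 74951672, minus strand). It measured 4.31 and 3.59 at 2 h (clones A and B), against 4.03 and 3.40 at 0 h, a mean of 10.7 times the median gene. As for Shh, clone A was above clone B at either time. The mark was uneven along the gene: the first 3950 bp held 4.88 on average over the 4 libraries, and the last 2408 bp held 2.12, obtained as the difference of 2 nested intervals. How reads that cross an interval's end were counted is not stated in the sources.

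Zic1 and Zic4 lie head to head on chromosome 9, Zic1 on the minus strand (91358058 to 91365826) and the Zic4 interval on the plus strand (91368089 to 91389351), 2262 bp apart. Zic1 measured 3.50 and 2.99 at 2 h (clones A and B), against 3.90 and 3.17 at 0 h. Zic4 measured 3.86 and 3.03 at 2 h, against 4.04 and 3.17 at 0 h. The pair was therefore close in level (9.50 and 9.88 times the median gene), and in both genes clone A exceeded clone B at each time. The Zic1 and Zic4 intervals used here do not overlap, although other Zic4 transcripts start close to the Zic1 start.

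The remaining members carried little of the mark. Smo, the transducer (chromosome 6, 29735497 to 29761366, plus strand), measured 0.357 and 0.359 at 2 h (clones A and B), against 0.353 and 0.330 at 0 h. Its first 17062 bp held 0.445 and its last 8802 bp held 0.165, so the upstream portion was the denser one. Both values were below the level called dense (1.43).

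Hhip, the ligand-binding inhibitor (chromosome 8, 79965850 to 80058069, minus strand), measured 0.333 and 0.378 at 2 h (clones A and B), against 0.361 and 0.390 at 0 h. This is 1.02 times the median gene. Gli2, the main activator of the pathway (chromosome 1, 118834061 to 119053619, minus strand), measured 0.135 and 0.151 at 2 h, against 0.140 and 0.142 at 0 h. It was denser than only 23.1% of named genes. Both intervals are long (92220 and 219559 bp), and their densities are averages over that length.

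**Figure D1:**
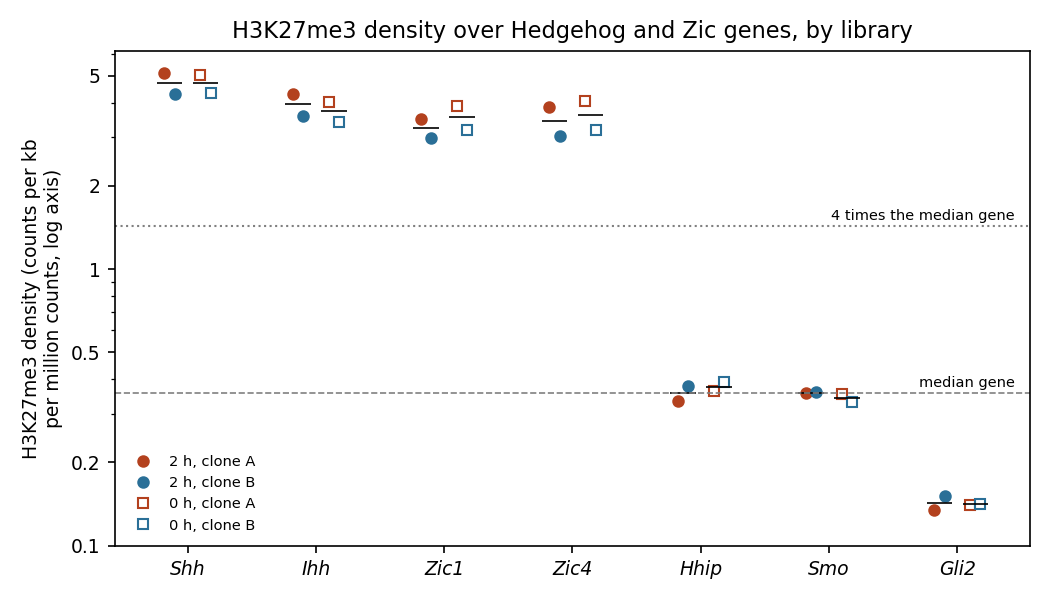
H3K27me3 density of 7 genes (log axis, counts per kb per 1000000 counts) in each of the 4 libraries, with 2 h left of 0 h; short bars are means of 2 libraries, the dashed line is the median gene and the dotted line is 4 times it. Shh, Ihh, Zic1 and Zic4 sit above the dotted line in all 4 libraries and Hhip, Smo and Gli2 sit near or below the dashed line.

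CpG-rich promoters were found on both sides of this divide. RefSeq start-site windows (GRCm38.p6, 250 bases before to 50 after the start) matched 6 of the 7 members, all but Shh. Ihh had 30 CpG dinucleotides in its window and Zic1 had 31, against 30 for Hhip and 28 for Gli2 among the genes without dense mark; the median of 32851 windows was 7. Smo had 17 and Zic4, whose listed start lies inside the interval used here, had 8. The 250 bases before the start are shown for 2 dense genes (Ihh, chr1:74951673-74951922, and Zic1, chr9:91365769-91366018) and 2 others (Gli2, chr1:119053620-119053869, and Hhip, chr8:80058009-80058258), all on the minus strand and written 5′ to 3′, with each CpG in capitals.
Ihh: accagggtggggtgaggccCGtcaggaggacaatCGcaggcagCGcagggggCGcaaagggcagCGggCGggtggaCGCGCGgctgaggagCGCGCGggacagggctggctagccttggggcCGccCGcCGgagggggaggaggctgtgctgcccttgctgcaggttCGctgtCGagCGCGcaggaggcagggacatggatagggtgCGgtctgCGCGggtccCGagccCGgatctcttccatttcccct
Zic1: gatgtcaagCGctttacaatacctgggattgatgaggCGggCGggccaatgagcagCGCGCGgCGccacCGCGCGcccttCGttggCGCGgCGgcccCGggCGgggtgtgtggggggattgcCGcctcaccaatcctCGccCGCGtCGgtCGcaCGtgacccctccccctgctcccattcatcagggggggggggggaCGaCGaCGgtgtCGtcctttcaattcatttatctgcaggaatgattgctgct
Gli2: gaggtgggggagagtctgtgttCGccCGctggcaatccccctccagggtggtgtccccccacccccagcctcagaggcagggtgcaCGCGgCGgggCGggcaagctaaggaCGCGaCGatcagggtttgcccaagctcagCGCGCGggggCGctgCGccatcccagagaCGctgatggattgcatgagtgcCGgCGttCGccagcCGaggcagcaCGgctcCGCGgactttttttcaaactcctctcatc
Hhip: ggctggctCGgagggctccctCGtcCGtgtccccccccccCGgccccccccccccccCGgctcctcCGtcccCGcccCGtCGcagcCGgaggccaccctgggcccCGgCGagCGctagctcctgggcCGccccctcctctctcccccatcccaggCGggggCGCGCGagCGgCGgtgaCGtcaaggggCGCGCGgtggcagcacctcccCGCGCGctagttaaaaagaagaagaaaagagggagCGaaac
These windows lie at or just beyond the edge of the interval used for each gene. Most of the Zic1 window lies inside other Zic4 intervals, which start at 91365825 and 91365888. The mark on the windows was not read separately. The Gli consensus GACCACCCA, searched on both strands, was present in 0.253% of the 32851 windows and in 0 of the 6 windows of members.

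Pathway genes with other roles were read from a list (28 genes reported), of which 9 were dense. The dense ones were nearly all listed as targets: 8 of 10 target genes other than members passed the limit. The 10 had a median of 10.9 times the median gene. Among them were Foxf1, a mesenchymal target (14.1 times), Nkx6-1 (13.3) and Nkx2-2 (11.4), which specify ventral neural progenitors, and Foxa2, the floor plate regulator (10.8). Hand2, listed with the targets although it is a limb regulator upstream of Shh, stood at 11.1 times. The cell cycle target Ccnd1 was not dense, at 1.5 times, and Fgf4, expressed by stem cells, stood at 0.277 times. Foxc2, Grem1 and Ccnd2 were dense as well (11.3, 5.47 and 5.27 times). Hhip, a target left out of the 10 because it is a member, was not dense (1.02 times).

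Genes that process, release, receive or relay the signal were dense about as often as named genes in general (5.78%). Of 6 genes for ligand processing and release, 1 was dense: Disp2, related to the ligand transporter Dispatched, at 4.92 times the median gene. Hhatl (3.35 times), Disp3 (2.88) and Scube2 (2.07) followed, and the median of the 6 was 2.48 times. Disp1, which releases ligand, stood at 0.525 times and Hhat, which palmitoylates it, at 1.07 times. None of the 3 receptor-related genes reported was dense (0.543 times for the co-receptor Cdon to 1.23 for Lrp2). None of the 9 transducer genes was dense either, from 0.323 times for Tulp3, a ciliary trafficking factor, to 1.74 for Glis1. Kif7, the kinesin that organises Gli at the cilium tip, stood at 1.32 times. Intervals in these roles ran from 8492 bp (Hhatl) to 258392 bp (Hhat). Those of the target genes were shorter, from 2725 bp (Foxc2) to 27027 bp (Ccnd2). Densities are averages over that length, so a mark confined to the promoter of a long gene could be missed. Whether length accounts for the contrast between roles was not tested.

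**Figure D2:**
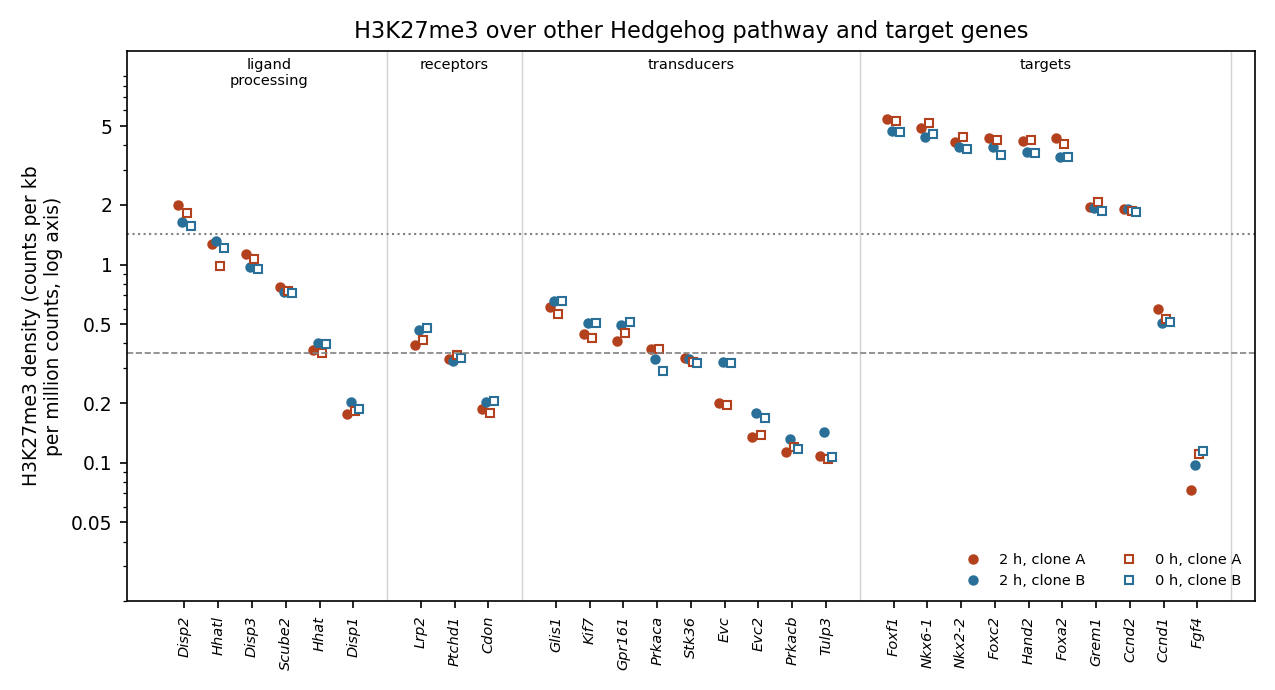
H3K27me3 density (log axis, counts per kb per 1000000 counts) of 28 other pathway genes, grouped by role and shown for each of the 4 libraries; dashed and dotted lines are the median gene and 4 times it. Of the 10 target genes shown, which leave out the member Hhip, 8 lie above the dotted line, and among the other roles only Disp2 does.

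The study's own comparison asks what 2 h of RAF activation did to the mark. None of the 7 members passed the test, and all estimates lay between −0.13 and 0.09 on the log2 scale. The test was edgeR's quasi-likelihood test over 50037 intervals with Benjamini-Hochberg adjustment, which called 0 intervals in either direction (0%; 0.376% had an unadjusted p under 0.05, and DESeq2 called 0 with 2 at that level). Adjusted p rounded to 1 for each member. Each time has 2 libraries, 1 of clone A and 1 of clone B, and this test has no clone term. Its p-values measure the spread between these libraries, which holds any clone difference and may be technical. With the clone letter as a block, 0 of 50037 intervals were called by edgeR. An unadjusted p under 0.05 was then reached by 2078 of them, against 188 without the block.

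Zic1 had the lowest estimate of the 7, a log2 change of −0.13 (SE 0.14, 95% interval −0.47 to 0.22, edgeR). It averaged 3.24 ± 0.359 at 2 h and 3.54 ± 0.516 at 0 h (SD, n = 2). Clone A gave −0.14 and clone B −0.11. Taking the clone letter as a block narrowed the 95% interval to −0.24 to −0.01, at an unadjusted p of 0.0332 by edgeR, and its adjusted p still rounded to 1. An unadjusted p under 0.05 was found for 2078 of 50037 intervals in that fit. Zic4 gave −0.07 (SE 0.16), with −0.05 in clone A and −0.09 in clone B.

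Ihh had the highest estimate, 0.09 (SE 0.14, 95% interval −0.25 to 0.43), with 0.12 in clone A and 0.05 in clone B. Smo gave 0.07 (SE 0.11) and was the only member whose libraries did not overlap between times, both 2 h values being higher; 10.7% of named genes had that order and 8.66% the opposite one. Hhip gave −0.08 (SE 0.10). For Shh (0.01, SE 0.13) and Gli2 (0.01, SE 0.10) the clones had opposite signs. The 95% intervals of these fits stay within a log2 size of 0.47 for each of the 7 genes, at whole-gene scale. Libraries were scaled to each other, so this bounds relative change only. A change shared by most intervals would not be seen.

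**Figure D3:**
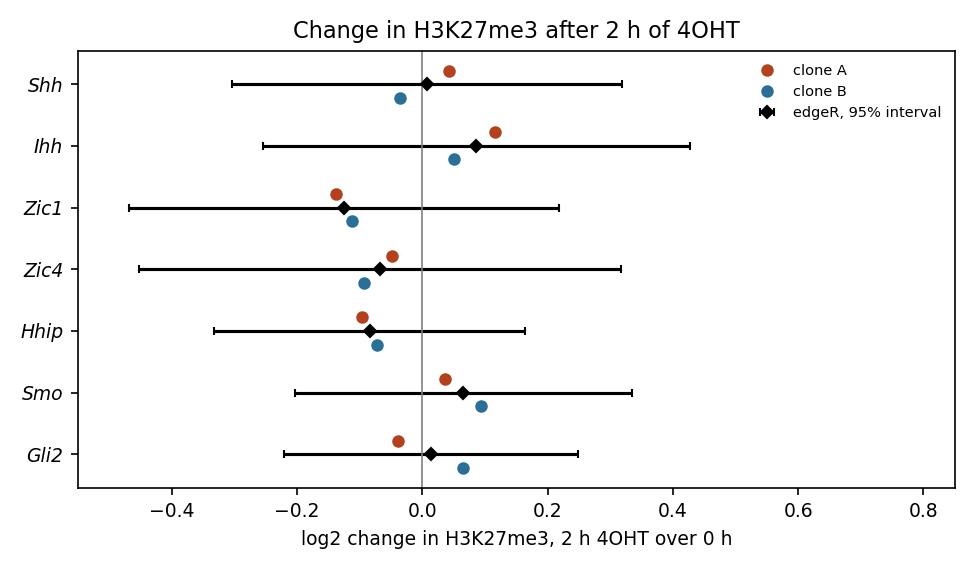
Log2 change in H3K27me3 at 2 h of 4OHT over 0 h for 7 genes; diamonds with bars are edgeR estimates with 95% intervals and dots are the single clones. All 7 intervals include 0, and the estimates run from −0.13 for Zic1 to 0.09 for Ihh.

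Of the other 28 pathway and target genes, 0 passed the same test and 0 had an unadjusted p under 0.05. With the clone letter as a block, 0 passed as well. Hhatl (log2 0.23, with 0.38 in clone A and 0.10 in clone B) and Tulp3 (0.24, with 0.06 and 0.40) had an unadjusted p of 0.00275 and 0.0309 by edgeR. In that fit, 2078 of 50037 intervals had an unadjusted p under 0.05. Without the block, log2 changes of the 28 genes ran from −0.41 for Fgf4, which has few counts, to 0.24 for Tulp3. Their median was 0.03, against a median of 0.00 over all named genes tested. Among target genes the values were 0.05 for Foxa2, 0.03 for Foxf1 and −0.08 for Nkx6-1.

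The clones offer a further comparison, since each was sampled at both times. With TMM scaling, the mark was higher in clone A than in clone B over Shh, Ihh, Zic1 and Zic4, and Smo, Hhip and Gli2 did not pass the test. Which members passed depended on the scaling, as given below. Time was an additive term, and edgeR called 16.9% of intervals higher and 9.91% lower in clone A. Calls were thus common, and among dense named genes 51.1% were called higher and 2.76% lower. Among other named genes, 12.8% were called higher and 10.2% lower. Both clone A libraries lay above both clone B libraries in the 4 dense members, as in 28% of named genes and 67.6% of dense ones. Gli2 and Hhip had the opposite order, as had 31.9% of named genes. Here p-values measure the spread left among the 4 libraries after clone and time, with edgeR pooling information over intervals. They do not measure the spread among independent clones. The 2 clones have 1 library each per time, so a difference between clones and one between their chromatin preparations cannot be told apart.

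For Shh, clone A averaged 5.09 ± 0.0576 and clone B 4.32 ± 0.0197 (SD, n = 2 times), a log2 difference of 0.26 (SE 0.05, adjusted p = 1.75e-05 by edgeR). It was 0.29 at 2 h and 0.22 at 0 h. For Ihh, the mean of clone A was 4.17 ± 0.195 and that of clone B 3.50 ± 0.132, a difference of 0.27 (SE 0.06, adjusted p = 5.42e-05 by edgeR). Zic1 averaged 3.70 ± 0.285 in clone A and 3.08 ± 0.129 in clone B, 0.28 on the log2 scale (SE 0.06, adjusted p = 2.3e-05 by edgeR). All 3 lie inside the middle range of dense genes, whose quartiles were 0.06 and 0.30 and whose median was 0.19.

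Zic4 had the highest clone difference of the 7. Clone A averaged 3.95 ± 0.133 and clone B 3.10 ± 0.1, a log2 difference of 0.37 (SE 0.05, adjusted p = 1.76e-11 by edgeR), above 83.5% of dense genes. With scaling factors from dense intervals alone, a setting added after seeing the data, the 3 other dense members lost their call (log2 0.05 for Shh, 0.07 for Ihh and 0.08 for Zic1). Zic4 kept it at 0.16 (adjusted p = 0.000967 by edgeR), where 13.9% of dense genes were called higher. This setting shifts the median of all intervals to −0.20, and under it Gli2 (−0.27) and Hhip (−0.33) were called lower in clone A, as were 37.9% of the named genes that are not dense.

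Without it, the members with little mark did not separate. Hhip averaged 0.347 ± 0.0197 in clone A and 0.384 ± 0.00867 in clone B (log2 −0.13, SE 0.06, adjusted p = 0.0688 by edgeR). Gli2 gave −0.07 (SE 0.06) and Smo 0.06 (SE 0.08), with adjusted p of 0.407 and 0.651 by edgeR. Hhip passed as lower with column totals as scaling (log2 −0.15, adjusted p = 0.00828 by edgeR).

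**Figure D4:**
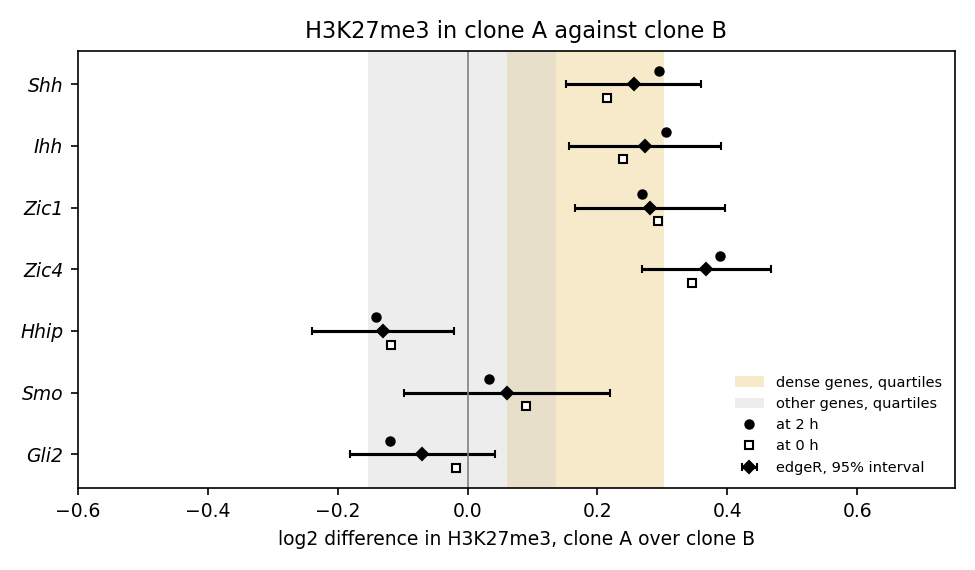
Log2 difference in H3K27me3, clone A over clone B, for 7 genes; diamonds with bars are edgeR estimates with 95% intervals, dots are single times, and shaded bands are the quartiles of dense and of other named genes. Shh, Ihh and Zic1 lie within the band of dense genes, and Zic4 lies at 0.37, above its upper quartile of 0.30.

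The larger clone difference of Zic4 was located at the end of the gene. Of its 13 intervals, counting 1 shorter one that matched less well, 4 reach the 3′ end and 9 stop upstream of it. The 4 had log2 differences of 0.37 to 0.52 and the 9 had 0.27 to 0.29. With factors from dense intervals, edgeR called all 4 higher in clone A and none of the 9 (adjusted p 0.0703 to 0.145). These intervals share most of their reads and are not independent.

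Between the 2 sets of ends lies a stretch of 2848 bp (chromosome 9, 91386501 to 91389348). It held 1049 counts in clone A and 438 in clone B at 2 h, and 850 in clone A and 449 in clone B at 0 h. As densities these are 3.98 and 1.81 at 2 h, and 4.24 and 1.94 at 0 h. Clone A was 2.27-fold higher at 2 h and 2.18-fold higher at 0 h after TMM scaling. The 8347 bp just upstream differed by 1.31-fold and 1.28-fold, and the 2 segments nearest the start by 1.11- to 1.17-fold. In clone A the final stretch was thus as dense as the rest of the gene, and in clone B it was the least dense segment measured.

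The stretch was chosen after its values were seen and has no test of its own. Cut in the same way from all genes, 964 segments of at least 1000 bp were dense. Their median clone difference was 0.19 on the log2 scale, and the final Zic4 stretch, at 1.15, was the highest of them, ahead of 0.923.

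**Figure D5:**
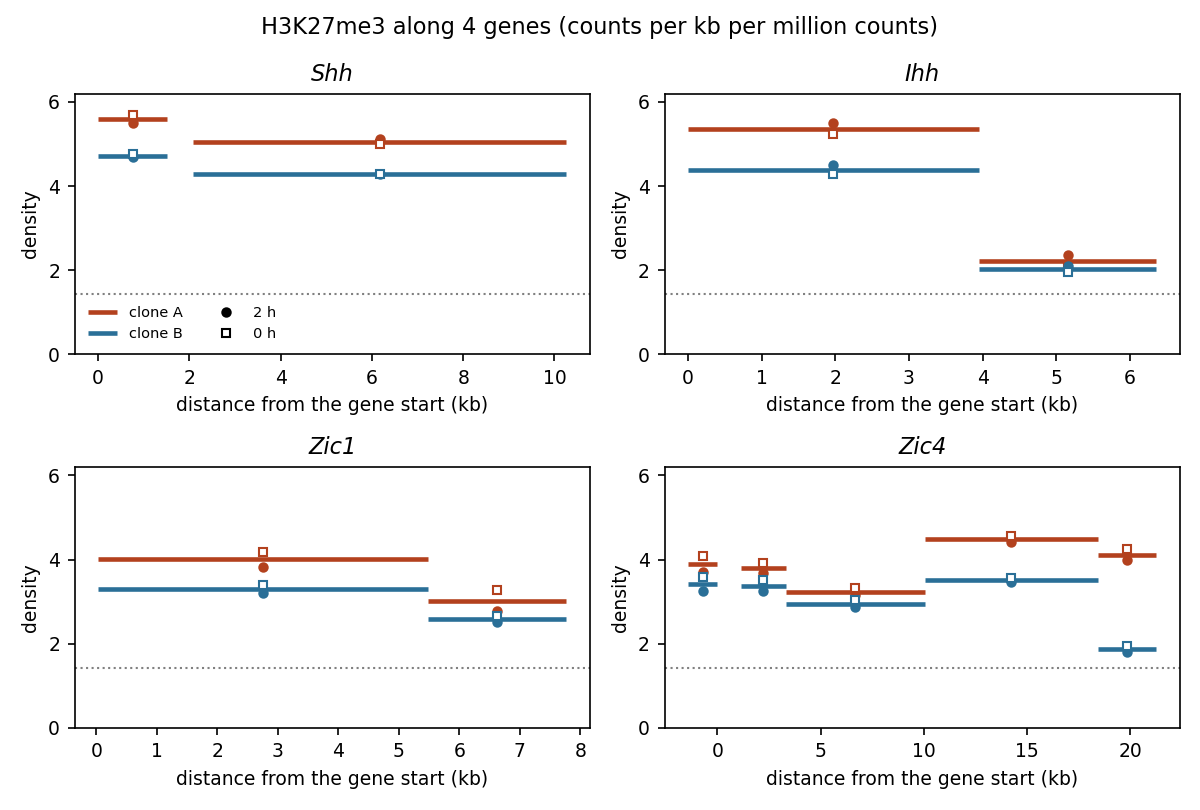
H3K27me3 density (counts per kb per 1000000 counts) along Shh, Ihh, Zic1 and Zic4 against distance from the gene start, in segments of at least 1000 bp; lines are clone means over both times, filled circles 2 h and open squares 0 h, and the dotted line is 4 times the median gene. Clone A lies above clone B in each segment, and the gap is widest in the last Zic4 segment.

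With TMM scaling, Shh and its upstream neighbour differed between the clones in opposite directions. The non-coding gene 9530036O11Rik starts beside Shh on the other strand and runs 252226 bp upstream of it (28466984 to 28719209), overlapping Shh at its start. It measured 0.505 and 0.613 at 2 h (clones A and B), against 0.488 and 0.618 at 0 h. It was lower in clone A (log2 −0.29, adjusted p = 7.25e-08 by edgeR), where Shh was higher. Gm42243 and Gm35688, the next genes on that side, were lower in clone A too (−0.30 and −0.26, both called). Beyond the other end of Shh, Rbm33 (37595 bp away, 0.234 times the median gene) was not called, and Gm35602 (140113 bp away, 1.78 times) was higher in clone A (0.20, adjusted p = 0.0243 by edgeR). With factors from dense intervals, Shh was not called (0.05) and 9530036O11Rik was still called lower (−0.49), so the opposite directions depend on the scaling. With TMM scaling the median difference was 0.19 over dense genes and −0.01 over other named genes. Whether Shh and 9530036O11Rik differ from each other was not tested.

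Gli2 was uneven between its ends. Its first 70839 bp held fewer counts in clone A (log2 −0.41 at 2 h and −0.21 at 0 h), while the last 130696 bp gave 0.01 and 0.10. With TMM scaling none of its 3 matching intervals was called, and with factors from dense intervals all 3 were called lower in clone A.

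Neighbours of Ihh and of the Zic pair varied in level. Cfap65, 9686 bp from the end of Ihh, stood at 3.28 times the median gene and was higher in clone A (0.21). Mir375, a microRNA gene of 64 bp on the same side, was dense at 20.7 times and not called. With 29 to 52 counts per library over so short an interval, its density is hard to compare with those of whole genes. On the side of the Ihh start, Nhej1 stood at 0.658 times and was not called, while Slc23a3 (1.86 times) was higher in clone A by 0.44 (adjusted p = 1.66e-05 by edgeR). Beside Zic1, Gm40545 was dense at 8.40 times and was not called (−0.00, 95% interval −0.22 to 0.22, which includes the median of dense genes), and Gm40546 stood at 2.01 times and was not called. Beyond the end of Zic4, Gm29478 (1.32 times) was higher in clone A (0.17) and Gm39400 (0.917 times) was not called.

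Around the members without dense mark, 0 of the neighbours were dense, beside 5.78% of all named genes. With so few neighbours, this is near that share. Those of Gli2 were Clasp1 (0.402 times), Tfcp2l1 (0.230), Gm46144 (2.47) and Gm41934 (1.23), of which Gm41934 was higher in clone A (0.42). Those of Smo were Tspan33 (2.04), Gm38780 (1.56), Ahcyl2 (0.457) and Strip2 (2.08), and none was called. Those of Hhip were Gm39206 (0.843), Anapc10 (0.332), Gm30494 (1.18), Gm30552 (1.07) and Gm39208 (0.969), and none was called. With factors from dense intervals, Gm35602, Cfap65, Gm29478 and Gm41934 were no longer called, and Slc23a3 was (0.24, adjusted p = 0.0434 by edgeR). Under the same setting Nhej1, Tspan33, Ahcyl2, Gm39206 and Gm30552 were called lower in clone A.

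Among the other 28 pathway and target genes, 9 were called higher and 5 lower in clone A, beside 16.9% and 9.91% of all intervals. Of the 9 dense ones 7 were called higher and 0 lower, with a median of 0.21, close to the 0.19 of all dense genes, of which 51.1% were called higher. Foxa2 gave 0.29 and Disp2 0.27. The other 2 called higher were Disp3 (0.20) and Prkaca (0.28), the catalytic subunit of the kinase that phosphorylates Gli proteins. None of the 5 called lower was dense: Evc (−0.68) and Evc2 (−0.32), neighbouring genes of a ciliary complex that relays the signal from Smo, Gpr161 (−0.21), a ciliary receptor that restrains the pathway, the co-receptor Lrp2 (−0.21), and Glis1 (−0.14). With factors from dense intervals, none of the 9 stayed called higher (Foxa2 0.08, Disp2 0.07, Prkaca 0.08). The 5 stayed called lower, and further genes joined them, among them Ccnd2 (−0.17) and Hhat (−0.32).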

How the data were processed

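H3K27me3 ChIP-seq was analysed in 4 libraries; 4 input libraries were not analysed here. The table that the authors deposited gives raw counts of reads for each transcript interval, per the file headers. Bowtie2, bedtools and mm10 are named in the submitters' processing notes; how reads were filtered and counted is not stated there. A further 12 per-library columns were not used. Its 50398 intervals lie on chromosomes 1 to 10, the sex chromosomes and the mitochondrial genome; others were not analysed here. Starts were taken as counted from 0 and are given counted from 1.

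Each interval took the name of the RefSeq gene (GRCm38.p6) whose span it matched (overlap over union at least 0.5, and 0.2 above the next gene), which named 43793 of them. Some listed genes are not reported here. Members and lists were chosen with earlier results of these data known. The text names all members, the listed genes or their range, neighbours, and the most alike gene. Counts were tested with edgeR 4.0.16 in R 4.3.3 (TMM, filterByExpr, adjusted p under 0.05), checked on simulated counts. For the time test, the simulated counts held no difference between clones, so they do not show how it performs with one. DESeq2 1.42.0 was an alternative. Segments are differences of intervals with ends within 100 bp and overlap over union of at least 0.3 with the gene. Calculations used pandas 2.3.3 in Python 3.11.15. Clone letters pair the libraries, since the labels give the same clones at both times; same-clone libraries deviated together (r = 0.53 across 50037 intervals).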

Additional observations from a re-analysis of the deposited data

Results flagged for a closer look

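For 2 genes the clones moved in opposite directions over 2 h, and with 1 library per clone and time the difference was not tested. For Shh the log2 change of clone A was 0.04 and that of clone B −0.04, a difference of 0.0792. For Gli2 clone A gave −0.04 and clone B 0.06, a difference of −0.102.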

How the results depend on the processing

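Density and its order held under all alternatives run: 4 members stayed dense at limits of 2 or 8 times, with TMM sizes and without any single library. The mean over both Ihh intervals was 4.36, above the 3.83 of its best match. For 2 h against 0 h, 0 intervals were called under every alternative run with all 4 libraries, including the replicate block (0 calls, 2078 at an unadjusted p under 0.05), and 0 to 1 without single libraries, where time and clone are no longer balanced. The 1 call came without clone A at 2 h and was no member.

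No member passed at 2 h in any setting. Small changes turned sign: Shh to −0.0012 with DESeq2 size factors, −0.0013 with DESeq2 and −0.0246 with factors from dense intervals, and Gli2 to −0.0076 with the last. Without single libraries the ranges were −0.15 to 0.12 for Shh, −0.0742 to 0.21 for Ihh, −0.0700 to 0.0728 for Gli2, −0.27 to 0.0283 for Zic1 and −0.28 to 0.12 for Zic4, all with changes of sign. Smo (0.01 to 0.11) and Hhip (−0.18 to −0.02) kept theirs.

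Between clones 13410 intervals were called, 8450 higher and 4960 lower in clone A. DESeq2 called 4824 (3431 and 1393), 1 interval per gene 5205 (3149 and 2056), and factors from dense intervals 22504 (2570 and 19934). Column totals gave 8035 and 6545. Fits without single libraries and without the time term called 9476 to 11838. Smo turned to −0.14 with factors from dense intervals. Zic1 missed the threshold without clone B at 2 h (0.20, adjusted p = 0.0682), and Hhip passed without clone A at 0 h (−0.18, adjusted p = 0.0104) and with a mean count of at least 50 (−0.13, adjusted p = 0.0498). Settings with dense factors and 1 interval per gene were added after seeing the data. Counts over whole genes limit what is seen at promoters.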

Other observations

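Around Shh, 2 of 8 genes listed for the region were dense in H3K27me3, beside 5.78% of all named genes. They were Mnx1, a motor neuron regulator (13.9 times the median gene), and En2, a midbrain and cerebellum regulator (9.63 times). Lmbr1, whose intron holds the limb enhancer of Shh, stood at 0.458 times, Rnf32 at 0.635, Nom1 at 0.279, Insig1 at 0.331 and Cnpy1 at 1.61. At 2 h 0 of the 8 passed the test by edgeR, and 0 had an unadjusted p under 0.05. In clone A 3 were called higher by edgeR, beside 16.9% of all intervals: Mnx1 (0.24), Lmbr1 (0.19) and En2 (0.19). Mnx1 and En2 are dense, and 51.1% of dense named genes were called higher. With factors from dense intervals none of the 3 was called (0.04, −0.01 and −0.02).

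The named genes closest in density over the 4 libraries were C1qtnf4 for Shh (mean absolute log2 difference 0.0237), Sp9 for Ihh (0.0123), Taf7l2 for Zic1 (0.0204), Gm38782 for Zic4 (0.0532), Smlr1 for Hhip (0.0139), Gm31713 for Smo (0.0192) and Sipa1l2 for Gli2 (0.0201). Zic4 had the least close match of the 7.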
